A study of Mus musculus with 2 samples.

Results

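The SoxC group of transcription factors comprises 3 genes in the mouse, Sox4, Sox11 and Sox12, and the p300 peaks around them were taken from a list of 6629 peaks made from embryonic dorsal cerebral wall. A peak was counted for a SoxC gene when its midpoint lay in the gene body or within 1 Mb of the transcription start site. This gave 74 of the 6629 peaks, 31 for Sox4, 32 for Sox11 and 11 for Sox12, and no peak was counted for more than 1 of the 3 genes.

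SoxC proteins are HMG-box factors that bind DNA at a short A/T-rich core and activate transcription. In the embryonic brain Sox4 and Sox11 come on as progenitors leave the cell cycle and become neurons, where they act after the proneural bHLH factors and switch on genes of the young neuron such as Tubb3, while Sox12 is co-expressed and is the weakest activator of the group. The protein p300 is a histone acetyltransferase recruited by transcription factors to active enhancers, so that its binding sites in a tissue mark candidate enhancers of that tissue.

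Chromatin was prepared from the neocortex of Swiss Webster embryos at E14.5, after the skull, skin, hippocampal and choroid plexus parts had been cut away, and was fixed with formaldehyde. It gave 1 library immunoprecipitated with an antibody against p300 and 1 input library without antibody. The embryos carried no named allele and received no treatment beyond the fixation. There was no replicate, the peak list carries no read count, score or enrichment, and the input library enters here only through the peak calls that the authors made against it. The depth behind any single peak is therefore unknown, intervals cover counting error only, and p-values describe the placement of 1 list of peaks and not the spread between embryos. The tissue holds progenitors, neurons and vessels together, and no expression was measured, so the data do not say in which of these cells p300 was bound near a SoxC gene. The markers available for a check of the tissue are numbers of peaks: genes of the dorsal pallium had a median of 12 peaks within 1 Mb and genes of the subpallium a median of 5, against 4 over all genes, and genes of blood and vessels a median of 1.

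Sox4 and Sox11 lay in the most densely occupied surroundings of the group, and Sox12 did not stand apart in the same way. A window of this size holds 5.18 peaks at the average density of the assembled genome, 2.59 peaks per Mb. Around Sox4 there were 31 peaks (exact Poisson 95% interval 21.1 to 44.0), 5.98 times the average (4.06 to 8.49). Around Sox11 there were 32 peaks (21.9 to 45.2), or 6.18 times the average (4.22 to 8.72). Sox12 had 11 peaks (5.49 to 19.7), 2.12 times the average (1.06 to 3.80).

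A one-sided exact binomial test of peak midpoints against the share of assembled bases was run for 22225 protein-coding genes and adjusted by the Benjamini-Hochberg method. Of all genes 1528 (6.88%) passed at an adjusted p under 0.05, and of the SoxC genes 2 of 3 passed. The adjusted p was 4.86e-12 for Sox4 and 8.12e-13 for Sox11 in this exact test, and 0.159 for Sox12 (0.0173 before adjustment). The paper had already placed Sox4 and Sox11 among the genes most enriched for these peaks, by a binomial test on regulatory domains. The values here come from the same peaks and are not independent of that result. Numbers as high as that of Sox4 occurred at 51 genes (0.229%), which fall into 7 separate loci because neighbouring genes share their peaks, and numbers as high as that of Sox11 at 48 genes (0.216%) in 5 loci. At least as many peaks as Sox12 were found for 2401 genes (10.8%) in 180 loci. The median gene had 4 peaks, the quartiles were 1 and 7, the highest count was 53, and 3374 genes (15.2%) had none. Sox4 and Sox11 differed by 1 peak, well within counting error, and both of their intervals lay above that of Sox12.

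**Figure D1:**
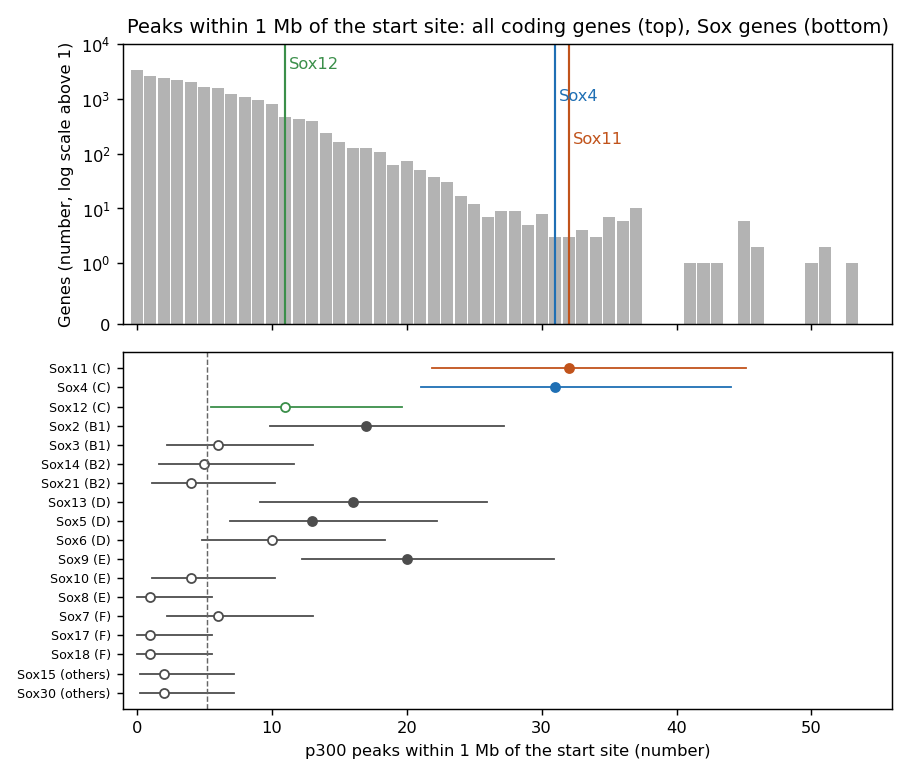
Top, number of protein-coding genes (vertical axis, logarithmic above 1) by the number of p300 peaks within 1 Mb of the start site (horizontal axis), with coloured lines at Sox4 (31), Sox11 (32) and Sox12 (11). Bottom, the same number for each Sox gene with its group in brackets and its exact Poisson 95% interval, filled where the adjusted p of the exact binomial test is under 0.05, with the dashed line at the genome average of 5.18. Sox11 and Sox4 have the highest numbers of all Sox genes shown.

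None of the 74 peaks lay inside a SoxC gene. All of these genes are short in the annotation used here, with Sox4 at 4795 bp, Sox11 at 2013 bp and Sox12 at 4436 bp. The authors had filtered out promoter-proximal (2.5 kb) and exonic peaks, so binding at the SoxC promoters themselves cannot be read from the list. The peaks nearest to each start site are therefore distal by construction. In all 3 loci the nearest peak lay upstream of the gene, at 5.22 kb from Sox4, 14.5 kb from Sox11 and 13.1 kb from Sox12. It was alone there. The next peak was 98.9 kb away at Sox4, 109 kb at Sox11 and 214 kb at Sox12, and 35.2%, 33.0% and 19.4% of all peaks were at least that far from their nearest neighbour. On the downstream side the first peak came at 93.7 kb for Sox4, 237 kb for Sox11 and 201 kb for Sox12.

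The middle 300 bases of these 3 nearest peaks are printed because they are the only peaks within 50 kb of a SoxC start site. They are the plus strand of mm9, and capitals mark CG dinucleotides, a feature picked out after the values were seen. The first is chr13:29050650-29050949 near Sox4, the second chr12:28041930-28042229 near Sox11 and the third chr2:152236751-152237050 near Sox12.

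Sox4 peak 1532: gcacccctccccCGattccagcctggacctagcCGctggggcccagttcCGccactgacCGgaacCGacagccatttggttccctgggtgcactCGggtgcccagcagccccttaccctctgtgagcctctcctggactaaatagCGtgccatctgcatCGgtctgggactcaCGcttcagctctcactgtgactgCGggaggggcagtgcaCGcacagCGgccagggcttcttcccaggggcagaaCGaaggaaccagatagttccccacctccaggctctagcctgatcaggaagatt

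Sox11 peak 1181: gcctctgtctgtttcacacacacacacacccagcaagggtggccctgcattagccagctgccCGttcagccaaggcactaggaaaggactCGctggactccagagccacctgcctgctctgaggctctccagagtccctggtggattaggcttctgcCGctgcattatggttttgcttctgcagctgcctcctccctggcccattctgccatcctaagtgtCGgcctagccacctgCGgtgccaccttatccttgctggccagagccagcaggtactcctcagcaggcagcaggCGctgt

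Sox12 peak 3629: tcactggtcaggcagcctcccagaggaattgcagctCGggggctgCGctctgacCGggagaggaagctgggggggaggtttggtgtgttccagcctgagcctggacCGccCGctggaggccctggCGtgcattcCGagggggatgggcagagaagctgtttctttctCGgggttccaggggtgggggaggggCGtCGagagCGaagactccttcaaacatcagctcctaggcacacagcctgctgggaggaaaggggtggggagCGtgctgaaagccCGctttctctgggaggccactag

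All 3 stretches were rich in G and C. The Sox4 stretch held 13 CG dinucleotides at a GC content of 62.7%, the Sox11 stretch 6 at 60.3% and the Sox12 stretch 13 at 64.3%. Over whole peaks, CG dinucleotides numbered 4.28 per 100 bp in the Sox4 peak, 1.43 in the Sox11 peak and 2.51 in the Sox12 peak, where the median of all 6629 peaks was 1.15. As many per base or more were found in 1.51% of all peaks for Sox4, in 34.8% for Sox11 and in 7.21% for Sox12. Peaks close to genes are richer in GC in general: the median was 49.0% for the 721 peaks within 15 kb of the start of a named coding gene and 43.8% for the 4458 peaks over 50 kb from one. The nearest peaks of the SoxC genes had 55.5% (Sox4), 51.1% (Sox11) and 54.3% (Sox12). The Sox12 peak is also 3.88 kb from the start of Zcchc3, closer than to Sox12.

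Sox4 (ENSMUSG00000076431) lies on the minus strand of chromosome 13, chr13:29040788-29045582 of mm9, between a long gene and a cluster of placental hormone genes. Its 31 peaks ran from 870 kb upstream to 658 kb downstream of the start site, 15 upstream and 16 downstream, at a median distance of 396 kb. Beyond them the list was empty for 1155 kb on the upstream side and 1636 kb on the downstream side, and 7.79% and 4.42% of all gaps between neighbouring peaks were as long. The peaks thus formed an island of 1.53 Mb with 20.3 peaks per Mb.

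The annotation split this island into 3 parts. On the upstream side 14 peaks lay inside Cdkal1, which encodes a tRNA-modifying enzyme, and 2 of the 14 touched an exon of it in the annotation used here. Cdkal1 spans 664 kb (chr13:29283615-29947543) and starts 902 kb from Sox4 on the far side of its own body. On the downstream side 12 peaks lay inside 2610307P16Rik, a long noncoding RNA gene. The other 5 were intergenic, the peak nearest to Sox4 among them. Of the named coding genes Sox4 had the nearest start for 17 of the 31 peaks, Cdkal1 for 9 and Prl5a1, a prolactin family gene 811 kb downstream, for 5. Cdkal1 had 16 peaks within 1 Mb of its own start or in its body, and all 16 were also counted for Sox4. Only 3 other named coding genes start within 1 Mb of Sox4. Just beyond, on the upstream side, E2f3 starts at 1032 kb and Mboat1 at 1183 kb. Each had 15 peaks in its own window, of which 14 were also counted for Sox4.

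The peaks of Sox4 came in runs. Of all 6629 peaks 15.9% stood in a run of at least 4 whose midpoints followed each other at under 50 kb, and of the Sox4 peaks 21 of 31 did. Dense windows have short gaps, so this share depends on the number of peaks already given. Grouping beyond that density was not tested. The longest run held 11 peaks over 196 kb, from 93.7 to 289 kb downstream and inside the noncoding gene. There were 9 runs that long or longer among the 4511 runs of the genome, single peaks included, and the longest of them had 29. Another run of 6 peaks lay 785 to 870 kb upstream, towards the start of Cdkal1, and one of 4 peaks 379 to 463 kb upstream. The closest pair, peaks 1524 and 1525, had midpoints 2.03 kb apart with 361 bases between them.

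Sox4 peaks were also wide. Their median width was 1318 bp (95% interval of the median 1069 to 1642), against 1017 bp over all peaks (1010 to 1025), and 23 of 31 (74.2%, exact 95% interval 55.4 to 88.1) were at least as wide as the median of all peaks. Among the 3205 genes with at least 10 peaks this median stood at percentile 96.8. The widest was peak 1518, of 3108 bp, 537 kb downstream, and 0.392% of all peaks were as wide. The peak nearest to the gene came next at 2920 bp (0.483% as wide). Since width was the only measure of a peak in the list, the number of reads in these peaks cannot be compared.

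Sox11 (ENSMUSG00000063632) lies on the minus strand of chromosome 12, chr12:28025562-28027574, in sequence with few genes. All of its 32 peaks were intergenic. They ran from 946 kb upstream to 817 kb downstream, 13 upstream and 19 downstream, at a median distance of 476 kb, over 1.76 Mb with 18.1 peaks per Mb. The empty stretches beyond were shorter than at Sox4, 314 kb upstream and 333 kb downstream, and 30.9% and 29.6% of all gaps were at least as long. A gap of 252 kb ran across the gene itself.

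Few other named coding genes start near Sox11, but their windows share many of its peaks. The named coding genes within 1 Mb were 3, all far downstream: Cmpk2, a nucleotide kinase, at 874 kb, Rsad2, an interferon-induced antiviral enzyme, at 886 kb, and Rnf144a, a ubiquitin ligase, at 927 kb. Upstream the next named start was that of Dcdc2c at 1205 kb. Sox11 had the nearest named start for 15 of its 32 peaks, Cmpk2 for 13 and Dcdc2c for 4. With model genes counted, Gm9866, 182 kb downstream, took 9 peaks, leaving 9 to Sox11, 10 to Cmpk2 and 4 to Dcdc2c. In its own window Gm9866 had 31 peaks, of which 30 were also counted for Sox11. Cmpk2 had 25 peaks with 21 shared, and Rsad2 and Rnf144a had 24 each with 20 shared.

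The Sox11 peaks fell into runs on both sides, and 18 of 32 stood in a run of at least 4. This share, too, depends on the density of the locus. The longest held 8 peaks, 540 to 711 kb downstream, and 21 of the 4511 runs of the genome were as long. Runs of 5 peaks lay 237 to 280 kb downstream and 205 to 331 kb upstream. On the far upstream side the last 5 peaks, from 496 to 946 kb, each stood alone. The closest pair, peaks 1169 and 1170, were 2.32 kb apart from midpoint to midpoint with 1335 bases between them.

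Unlike those of Sox4, the peaks of Sox11 had an ordinary width. The median was 997 bp (853 to 1293), 15 of 32 (46.9%) reached the median of all peaks, and the median stood at percentile 35.0 of the 3205 genes. The widest, peak 1174, had 1792 bp and lay 456 kb downstream, and 7.20% of all peaks were as wide. The 95% intervals of the Sox4 and Sox11 medians overlapped between 1069 and 1293 bp, and no test of the difference was made, since the peaks of a locus share a library and a neighbourhood. The numbers of peaks at Sox4 and Sox11 were almost equal, while the observed medians of width were 1318 and 997 bp.

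Sox12 (ENSMUSG00000051817) lies on the minus strand of chromosome 2, chr2:152219347-152223782, among many genes, where 49 other named coding genes start within 1 Mb against 3 each at Sox4 and Sox11. Its closest neighbours are Zcchc3, a nucleic acid-binding factor of innate immunity, 17.0 kb upstream, and Nrsn2, a neuronal membrane protein, 21.4 kb downstream. Of its 11 peaks 5 were upstream and 6 downstream, from 652 kb upstream to 434 kb downstream. Sox12 had the nearest start for none of the 11. That place was taken by Scrt2, a neuronal zinc finger repressor, for 3 peaks, by Fam110a for 2, and by Zcchc3, Csnk2a1, Id1, Mcts2, Bcl2l1 and Xkr7 for 1 each. Further, 3 peaks lay inside coding genes, in H13, Bcl2l1 and Xkr7, and 8 were intergenic.

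The Sox12 window held 1 run of at least 4 peaks. It had 5 of the 11, 329 to 434 kb downstream, on the far side of the start of Scrt2 at 317 kb. There the closest pair (peaks 3625 and 3626, 19.2 kb apart) and the widest peak (3626, 2302 bp) were found. With the window cut to 500 kb on each side Sox12 kept 10 of its 11 peaks, 3.86 times the average, and passed the exact binomial test (adjusted p = 0.0131). When every peak was given to the named coding gene with the nearest start, Sox12 had 0 peaks, while Sox4 had 17 and Sox11 15. The stretches so assigned differ in size: the average density gives 0.0498 peaks for Sox12, 2.22 for Sox4 and 2.69 for Sox11. A count of 0 at Sox12 therefore says little. The distance thus changed the call for Sox12, and the rule of assignment changed its number of peaks but not the call.

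**Figure D2:**
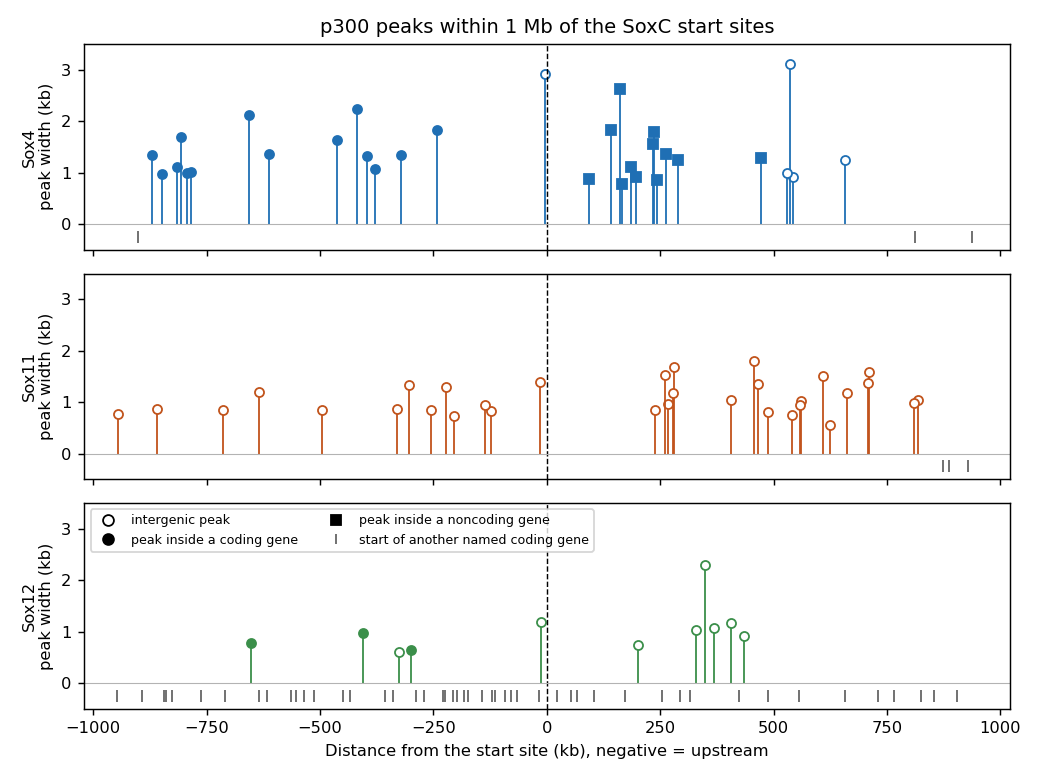
Each stem is a p300 peak, placed by the distance of its midpoint from the SoxC start site (horizontal axis, kb, negative upstream of the gene) with its width in kb as the height. Open circles are intergenic peaks, filled circles lie inside a coding gene and squares inside a noncoding gene, and ticks under the axis mark starts of other named coding genes. Sox4 has Cdkal1 peaks on the left and peaks of a noncoding gene on the right, Sox11 has intergenic peaks throughout, and Sox12 has 11 peaks among 49 other starts.

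The 3 genes also gained their peaks at different distances. Within 100 kb Sox4 had 2 peaks, Sox11 and Sox12 1 each. Within 200 kb there were 7 at Sox4, 3 at Sox11 and 1 at Sox12, and within 300 kb 13, 11 and 3. At 500 kb the numbers were 19, 18 and 10. Sox4 and Sox11 went on gaining peaks out to 900 kb, where each had 31, while Sox12 gained 1 peak beyond 500 kb. A window of 250 kb held 11 peaks of Sox4 and 6 of Sox11, and only Sox4 passed the exact binomial test there (adjusted p for Sox11 0.0696), although the difference between the genes was not tested.

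**Figure D3:**
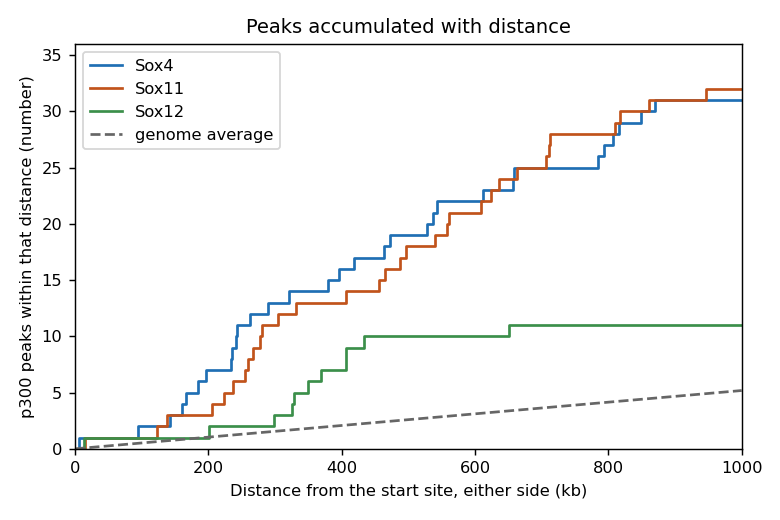
Number of p300 peaks (vertical axis) whose midpoint lies within a given distance of the start site on either side (horizontal axis, kb) for Sox4, Sox11 and Sox12, with the genome average as a dashed line. The line of Sox4 is above that of Sox11 at 250 kb (11 and 6 peaks), they reach 31 and 32, and the line of Sox12 ends at 11.

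The Sox12 peaks had the highest GC content of the 3 genes. Their median was 55.2% (95% interval of the median 50.2 to 60.3), against 43.8% (42.4 to 45.3) for Sox4, 45.1% (43.2 to 46.6) for Sox11 and 45.2% for all peaks. The lowest Sox12 peak, at 49.8%, was above 30 of the 31 Sox4 peaks and 31 of the 32 Sox11 peaks. The exceptions were the nearest peaks of these genes, 55.5% at Sox4, where the second highest had 47.7%, and 51.1% at Sox11, where the second highest had 49.0%. The sequence around the peaks moved the same way: regions of 500 bp taken 10 kb to either side had a median GC content of 46.3% at Sox12, 42.0% at Sox4, 41.2% at Sox11 and 43.8% over all peaks. The part of the surrounding sequence in the GC content of the Sox12 peaks was not tested.

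**Figure D4:**
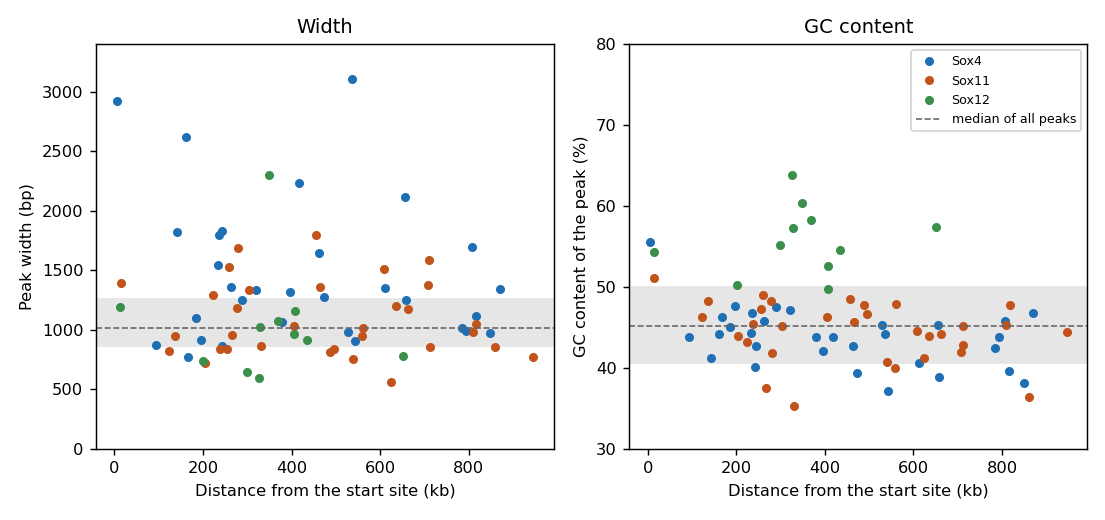
Width in bp (left) and GC content in percent (right, axis from 30) of each peak counted for Sox4, Sox11 or Sox12, against the distance of its midpoint from the start site in kb. The dashed line is the median and the grey band the range between the quartiles of all 6629 peaks, the green Sox12 points lie at 49.8% GC or more, and the highest points on the left, at 3108 and 2920 bp, are peaks of Sox4.

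Motif letters were counted in the middle 500 bp of each peak, on both strands, and in regions of the same length 10 kb to either side of all peaks (13243 regions). The Sox core was taken as ACAAAG or ACAATG. It occurred in 18 of 31 Sox4 peaks (58.1%), 15 of 32 Sox11 peaks (46.9%) and 7 of 11 Sox12 peaks (63.6%). Together this was 40 of 74 (54.1%, exact 95% interval 42.1 to 65.7), where all peaks had 56.5% and the flanking regions 53.9%. The share at the SoxC genes was thus not distinguishable from that in peaks at large or in flanking sequence. None of the 3 nearest peaks had a Sox core in its middle 500 bp.

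For each gene the peak with the most Sox cores in its middle 300 bases is printed to show how these sites lie, again as the plus strand of mm9 and with the Sox cores in capitals on whichever strand they read. Peak 1528 is 167 kb downstream of Sox4 (chr13:28878871-28879170) and peak 1187 is 304 kb upstream of Sox11 (chr12:28331532-28331831). Peak 3631 is 326 kb upstream of Sox12 (chr2:152549713-152550012), the nearest of 3 Sox12 peaks with the same number.

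Sox4 peak 1528: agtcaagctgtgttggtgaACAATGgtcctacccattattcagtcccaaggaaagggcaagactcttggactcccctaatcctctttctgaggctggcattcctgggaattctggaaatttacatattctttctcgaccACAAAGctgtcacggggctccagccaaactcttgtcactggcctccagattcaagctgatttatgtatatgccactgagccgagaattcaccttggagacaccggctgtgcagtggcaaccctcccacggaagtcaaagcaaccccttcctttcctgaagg

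Sox11 peak 1187: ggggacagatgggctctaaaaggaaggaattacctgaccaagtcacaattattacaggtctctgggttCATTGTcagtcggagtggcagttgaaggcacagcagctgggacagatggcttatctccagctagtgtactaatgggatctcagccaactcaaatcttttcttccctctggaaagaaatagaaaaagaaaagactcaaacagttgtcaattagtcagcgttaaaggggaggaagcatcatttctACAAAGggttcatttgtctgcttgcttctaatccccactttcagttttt

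Sox12 peak 3631: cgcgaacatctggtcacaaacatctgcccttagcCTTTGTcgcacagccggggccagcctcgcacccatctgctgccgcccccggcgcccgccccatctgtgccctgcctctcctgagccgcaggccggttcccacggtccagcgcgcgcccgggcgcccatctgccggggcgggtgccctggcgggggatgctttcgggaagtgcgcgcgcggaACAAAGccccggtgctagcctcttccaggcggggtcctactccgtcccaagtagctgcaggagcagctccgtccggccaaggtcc

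Each of these stretches held 2 Sox cores. The Sox11 stretch also had 2 copies of CAGATG, read on either strand, and the Sox12 stretch 5 of them at a GC content of 71.0%. CAGATG is an E-box of the kind bound by proneural bHLH factors such as Neurog2, which act upstream of SoxC genes. It occurred in the middle of 18 of 31 Sox4 peaks (58.1%), 19 of 32 Sox11 peaks (59.4%) and 8 of 11 Sox12 peaks (72.7%), together 45 of 74 (60.8%, 48.8 to 72.0). All peaks had 57.3% and flanking regions 34.2%, so that the interval of the SoxC peaks held the first value and lay above the second.

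The other letters searched were scarcer. The homeodomain core TAATTA was present in 18 of 74 SoxC peaks (24.3%, 15.1 to 35.7), against 31.3% of all peaks and 14.9% of flanking regions. The octamer ATGCAAAT of POU factors, some of which bind DNA beside Sox proteins, was in 2 Sox4 peaks and in none of the 32 Sox11 or 11 Sox12 peaks. This was 2.70% of the 74 (0.329 to 9.42), against 7.60% of all peaks and 3.38% of flanking regions, both inside the interval. Over whole peaks 12.9% of all peaks held it, against 6 of 31 Sox4 peaks (19.4%, 7.45 to 37.5) and again none at Sox11 (0 of 32, an upper limit of 10.9%) or Sox12 (0 of 11, an upper limit of 28.5%). The dimer site of Nfi factors, a spaced palindrome searched in full length, was in none of the 74 peaks, which allows up to 4.86%. It was in 0.272% of all peaks and 0.0227% of flanking regions. The paper scored weight matrices instead and reported Nfi motifs in a far larger share of its peaks. Exact letters thus miss most such sites, and their absence here does not mean that Nfi sites are absent.

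**Figure D5:**
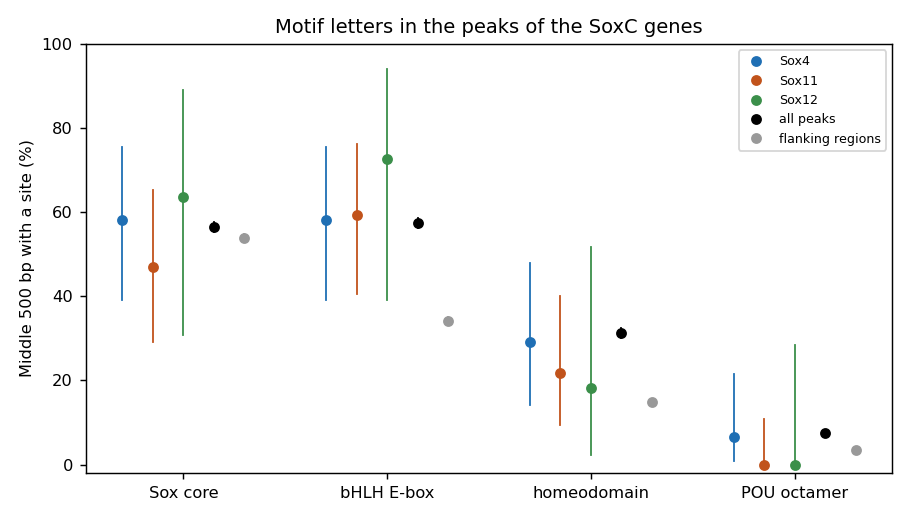
Percent of regions of 500 bp that hold the letters of 4 motifs, for the peaks of Sox4, Sox11 and Sox12, all peaks and flanking regions, with exact 95% intervals as vertical lines. E-box shares of the SoxC peaks lie near the 57.3% of all peaks, and Sox core shares are close to those of peaks and flanks alike.

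Among the other Sox genes none had as many peaks as Sox4 or Sox11. The nearest in number was Sox9, a group E gene of progenitors and glia, with 20 peaks (exact binomial, adjusted p = 4.21e-05), the nearest 195 kb from its start. Next came Sox2, a group B1 gene of neural stem cells, with 17 (adjusted p = 0.00113 in the exact test), Sox13 with 16 (0.00313) and Sox5 with 13 (0.0396), both of group D. The Poisson interval of Sox4 (21.1 to 44.0) overlapped those of Sox9 (12.2 to 30.9), Sox2 (9.90 to 27.2), Sox13 (9.15 to 26.0) and Sox5 (6.92 to 22.2), and so did that of Sox11 (21.9 to 45.2). Overlap of intervals is not a test, and differences between these genes were not tested. Thus 1 of 2 genes found of group B1, 2 of 3 of group D and 1 of 3 of group E passed, against 6.88% of all genes. Neither of the group B2 genes, Sox14 (5) and Sox21 (4), none of the 3 group F genes of endothelium, which had 1 to 6 peaks, and neither of Sox15 and Sox30, with 2 each, did so.

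Of 9 genes known as partners or upstream factors of SoxC proteins in neurons, 4 passed the same exact test, against 6.88% of all genes, and the median of the list was 12 peaks. These were Neurog2, the proneural factor of cortical progenitors, with 19 peaks, 15 of them within 250 kb, Neurod6 with 18 and Neurod2 with 13, bHLH factors of cortical neurons, and Pou3f1 with 15. Neurog1 (10), Neurod1 (8), Pou3f2 (7), Pou3f3 (12) and Pou3f4 (0) did not pass. Peaks of Neurog2 thus lay close to the gene, where Sox4 had 11 and Sox11 6 peaks within 250 kb.

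Of 5 genes reported as SoxC targets in neurons 1 passed, against 6.88% of all genes, with a median of 4 peaks over the list, the same as over all genes. It was Tubb3, which encodes the neuronal beta-tubulin, with 16 peaks, but the nearest of these was 273 kb away. The others were Fezf2, a factor of deep-layer projection neurons, with 10 peaks of which 4 were within 100 kb, Dcx, a microtubule-binding protein of migrating neurons, with 4, Mtap2 with 2 and Tead2 with 2. Against the same 6.88%, 2 of 7 dorsal pallium genes passed (Pax6 with 16 peaks, Emx1 with 14), and of the 8 subpallium and 5 blood and vessel genes none did. Unadjusted, the exact p was 0.0173 for Dlx2 and 0.0389 for Dlx1, the lowest of the 13.

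The genes on other chromosomes with the most similar layout were found by the summed difference in peak numbers over 8 bins of distance and side. For Sox4 they were Cpsf4l, with a difference of 10 and 29 peaks in all, Afmid (12 and 19 peaks) and Barhl1 (12 and 23), where the median over genes was 28. The nearest to Sox11 were Akap1 (9 and 23 peaks), Ctnnb1, which encodes beta-catenin (9 and 25), and Aktip (10 and 30), with a median of 29. For Sox12 Lpl, Pafah1b2 and Sidt2 each differed by 3 from its 11 peaks, with 8, 10 and 10 peaks of their own, where the median was 11. The smallest summed difference was 9 for Sox11 and 10 for Sox4. This measure grows with the number of peaks, so the values of the 3 genes cannot be compared with each other. The medians over genes largely reflect the total counts. No comparison with counting error was made, so the values do not show whether a layout is unusual.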

How the data were processed

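p300 was immunoprecipitated from E14.5 dorsal cerebral wall (1 ChIP and 1 input library). The authors aligned reads to mm9 with ELAND, kept unique alignments, used MACS (version 1.4 by the submitters' notes) with the input as control, and filtered the calls: promoter-proximal ones (2.5 kb), exonic ones and those in doubtfully mappable sequence were taken out. The deposited file, used as other values since it has no score, signal or count, gives the coordinates and number of each of 6629 peaks. Of these, 165 lay within 2.5 kb of a start in the annotation used here, which is not the one the authors used. Data of the input library were not analysed here.

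Midpoints were placed on NCBIM37 (mm9, 2.56 Gb assembled) with GENCODE vM1, 1 entry per gene name (Sox4 has a pair of identifiers) and as start site that of the transcript whose coding sequence is longest. Counts in the gene body or within 1 Mb were compared with the share of assembled bases by a one-sided exact binomial test over 22225 coding genes with Benjamini-Hochberg adjustment, as in the binomial test of GREAT, whose domains served as an alternative. Peaks cluster, which makes these p-values too small. Windows of neighbouring genes overlap, so their tests are not independent and the same peaks can make several genes pass. Clustering likewise makes the Poisson intervals too narrow. In simulated lists 0 of 22225 genes passed with uniform placement and 50 of 50 with 20 planted peaks each. These lists only check the code: they hold no natural clustering and so give no error rate for the real list. Shares have exact Clopper-Pearson intervals. Medians and motif shares were not tested. Python 3.11.15, numpy 2.4.6, scipy 1.17.1 and matplotlib 3.10.9 were used.

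The genes, gene lists and rules were chosen with earlier results of these data known. Named were the SoxC genes, their coding neighbours, genes holding a peak, the 3 genes most alike in layout, and lists of Sox groups, SoxC partners and targets, and pallial, subpallial, blood and vessel genes. Named peaks were the nearest on each side, the widest and the closest pair. Runs of peaks, CG dinucleotides, the empty stretches around the loci and the GC content of flanking regions were added after the values had been seen. A further gene chosen as a SoxC partner is not reported here, which leaves 9 in that list. Sox1 was not analysed here, and Mtap2 is the older symbol of Map2. Alternatives changed the distance, start site, peaks counted, background density, assignment and genes tested.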

Additional observations from a re-analysis of the deposited data

How the results depend on the processing

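Sox4 passed the exact binomial test under 10 of 11 alternatives and Sox11 under 9, while Sox12 stayed short of it under 8 with a number above the average. Within 100 kb Sox4 (2 peaks) and Sox11 (1) did not pass, and Sox11 did not within 250 kb (6 peaks). Sox12 passed within 500 kb (10 peaks). It had 0 peaks in regulatory domains drawn among all protein-coding genes and 0 by the nearest named start. The average density gives only 0.0750 and 0.0498 peaks in these short intervals, so 0 does not show a shortage of peaks. In the domains among all protein-coding genes Sox4 had 16 peaks, against 2.11 at the average density, and Sox11 13, against 3.05. In domains drawn among named coding genes Sox4 had 31 (6.99 times the average) and Sox11 32 (6.60 times). Sox12 had 1 peak there, where the average density gives 0.0840. This was 11.9 times the average but did not pass (exact binomial p = 0.0805 before adjustment). The number of genes that passed was 1528, and 907, 462 and 197 within 500, 250 and 100 kb, 993 with peaks under 5 kb apart joined, 809 with only the wider peaks (median width or more), and 2745 with all annotated genes tested. It stayed within 1.5 times of 1528 under the other 4 alternatives. Shorter windows and fewer peaks leave less to count, and beyond this the cause was not tested. The share of SoxC peaks with a Sox core was 85.1% over whole peaks (81.0% of all peaks) and 20.3% for the longer AACAAAG or AACAATG in the middle 500 bp (23.2% of all peaks, 20.9% of flanking regions), and all 6 medians of width and GC content moved by less than their intervals. No paired analysis was possible because there was 1 p300 library and no replicate. Without scores, a stricter peak list could be made only by width.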
